A study of Mus musculus with 21 samples.

Results

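The enzymes that write, copy and remove DNA methylation were examined as a set of 9 genes in mouse embryonic stem cells (mESCs) lacking the cohesin regulators PDS5A or PDS5B. The set was listed by symbol (*Dnmt1*, *Dnmt3a*, *Dnmt3b*, *Dnmt3l*, *Uhrf1*, *Tet1*, *Tet2*, *Tet3* and *Tdg*) and makes up 9 of the 23412 gene symbols counted. Of these, 8 had enough reads to be tested and *Tdg* did not. The study asked how the paired cohesin subunits PDS5A and PDS5B act on gene expression, using poly-A RNA-seq of male v6.5 mESCs on gelatin. Cells received 50 nM siRNA and were collected 48 h later, with siGLO as the transfection control. The 7 groups of 3 libraries were WT siGLO, WT siPds5b, *Pds5b*-/- siGLO, *Pds5a*-/- siGLO, *Pds5a*-/- siPds5b, *Pds5a*-/- siStag1 and *Pds5a*-/- siStag2 (knockouts are labelled Pds5a-KO and Pds5b-KO in the plots). Each knockout was a single CRISPR clone, so an effect of the clone and an effect of the genotype cannot be told apart. The 3 libraries of a group are replicates of that clone or of the WT line, so the p-values measure only the spread between these libraries.

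DNMT3A and DNMT3B place new methyl groups on cytosine, with DNMT3L as a catalytically inactive partner, while DNMT1, brought to newly copied DNA by UHRF1, restores methylation after replication. The TET dioxygenases oxidize methylated cytosine, and TDG excises the oxidized bases so that repair can put back an unmodified cytosine. In mESCs the de novo enzymes are low in the naive ground state and rise on the way to the primed state.

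Levels are given as normalized counts, the reads of a gene scaled by trimmed mean of M-values (TMM) to a library of 19816922 counts. Changes are log2 fold changes ± standard error from an edgeR model of all 21 libraries and 14963 tested genes. A gene was called when its p-value, adjusted over all tested genes by the Benjamini-Hochberg method, was under 0.01, and only called genes are said here to rise or fall. Since RNA was taken from whole cultures, fewer cells of a type and less RNA per cell cannot be told apart.

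The targeted genes were read first, as a check on the labels. *Pds5b* counted 2354.5, 2019 and 2285 in WT siGLO, 687, 839 and 802 in WT siPds5b and 278, 312 and 238 in *Pds5b*-/- siGLO. In the *Pds5a*-null line it counted 2613.5, 2073.5 and 2411.5 with siGLO and 1073.5, 901 and 736 with siPds5b, so every knockdown or knockout library lay below every library of its control. The log2 fold changes of *Pds5b* were -1.52 ± 0.11, adjusted p = 4.93e-08 in WT siPds5b, -3.01 ± 0.12, adjusted p = 8.81e-14 in *Pds5b*-/- siGLO, and -1.39 ± 0.11, adjusted p = 2.30e-08 in *Pds5a*-/- siPds5b relative to *Pds5a*-/- siGLO. *Stag1* averaged 2428 ± 118 in *Pds5a*-/- siGLO and 575 ± 59.7 after siStag1 (-2.08 ± 0.09, adjusted p = 5.54e-14). *Stag2* averaged 3255.5 ± 316 and, after siStag2, 875 ± 69.8 (-1.90 ± 0.10, adjusted p = 3.48e-11). *Pds5a* transcripts counted 5256, 4719.9 and 5199.7 in WT siGLO and 4786, 3788 and 4239 in *Pds5a*-/- siGLO, and this difference was not called (-0.24 ± 0.09, adjusted p = 0.0415). In *Pds5a*-/- siPds5b, of the same line, *Pds5a* counted 4082, 3806 and 3522 and fell relative to WT siGLO (-0.41 ± 0.09, adjusted p = 0.000605). Most of the *Pds5a* count was thus still present in the knockout line, and the deletion itself cannot be seen in gene-level counts.

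Marker genes were read next for cell identity. The 10 mESC identity markers, all tested, summed to 155570 normalized counts in WT siGLO, 132960 in *Pds5a*-/- siGLO, 129120 in *Pds5b*-/- siGLO and 116510 in *Pds5a*-/- siPds5b, with *Tdgf1* the most abundant by counts over all libraries (not scaled for length). They summed to 157120 in WT siPds5b, 125850 in *Pds5a*-/- siStag1 and 108200 in *Pds5a*-/- siStag2. The 10 fibroblast and feeder markers, led by *Acta2*, summed to 2669 in WT siGLO, 2155 in *Pds5a*-/- siGLO, 898 in *Pds5b*-/- siGLO and 2959.9 in *Pds5a*-/- siPds5b, and *Lum*, *Dcn* and *S100a4* had too few reads to be tested. Their sums were 3557.5 in WT siPds5b, 1513.8 in *Pds5a*-/- siStag1 and 3401.6 in *Pds5a*-/- siStag2.

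Libraries numbered 1 stood apart for part of the set, which bears on every group mean below. The number 1 library was the highest of its group for *Dnmt3l* in 7 of 7 groups and for *Dnmt3a* and *Tet1* in 6 of 7 groups. Its mean distance from the group mean was 0.29, 0.31 and 0.25 on the log2 scale for *Dnmt3l*, *Dnmt3a* and *Tet1*. The summed primitive endoderm markers were highest in library 1 in 6 of 7 groups (14959, 8216 and 9166 in libraries 1, 2 and 3 of *Pds5a*-/- siGLO), the exception being *Pds5a*-/- siStag2 (7959, 7901.5 and 8270.3). The summed trophoblast markers were lowest in library 1 in 7 of 7 groups (12826, 34705 and 33772 in *Pds5a*-/- siGLO). Library 1 also had the lowest fibroblast and feeder sum in the 5 knockout groups (973, 2622 and 2871 in *Pds5a*-/- siGLO). The ribosomal RNA precursor *Rn45s* took 1.23, 1.44, 1.37 and 1.39 percent of counts in library 1 of WT siGLO, *Pds5a*-/- siGLO, *Pds5b*-/- siGLO and *Pds5a*-/- siStag2, against 0.477 to 0.643 percent in their libraries 2 and 3 apart from *Pds5a*-/- siStag2 library 3, at 2.68 percent. In the other 3 groups *Rn45s* took 0.659 to 0.94 percent in every library. For the tested methylation and demethylation genes, results without the 7 number 1 libraries are given beside those of all libraries where a call differs. Calls of the targeted genes and of other listed genes, markers included, were not followed in that fit. Whether those calls hold without the number 1 libraries was not tested. What set these libraries apart was not tested.

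**Figure D1:**
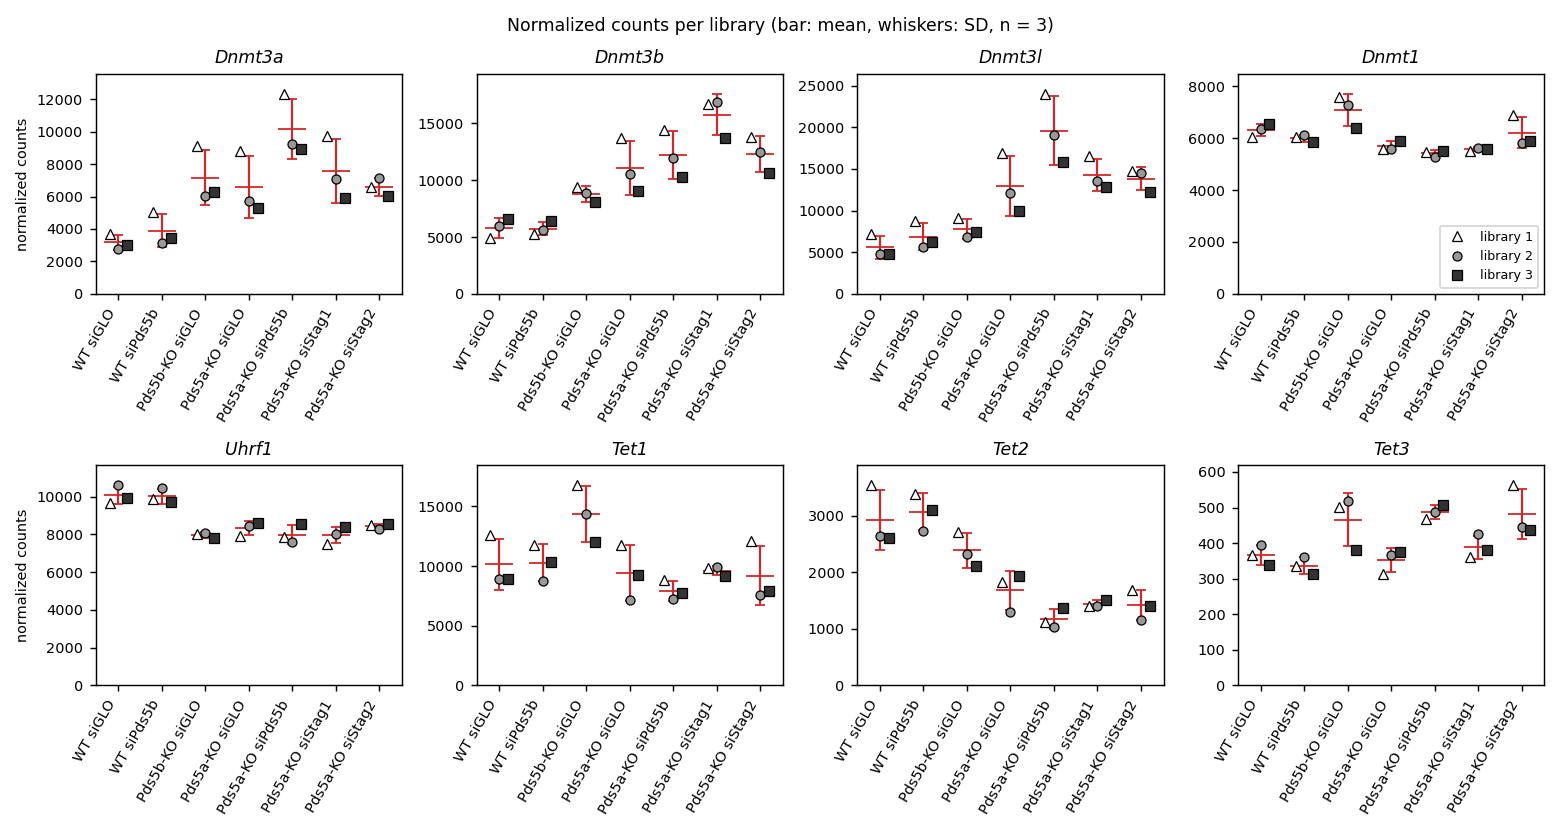
Normalized counts of the 8 tested methylation and demethylation genes (vertical axis) in the 7 groups (horizontal axis), with 1 point per library (n = 3; triangle, circle and square for libraries 1, 2 and 3), red bars at group means and whiskers of 1 standard deviation. *Dnmt3a* and *Dnmt3b* sit above WT siGLO in all 5 knockout groups, while *Dnmt3l* and *Tet2* overlap it in Pds5b-KO siGLO.

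*Dnmt3a*, 1 of the 2 catalytic de novo methyltransferases, counted 3688, 2774.5 and 3036 in WT siGLO, 8791, 5717 and 5303 in *Pds5a*-/- siGLO and 9125.5, 6059.7 and 6296 in *Pds5b*-/- siGLO. With PDS5B also depleted, the *Pds5a*-/- siPds5b libraries reached 12316, 9257 and 8909. Every knockout library of these 3 groups lay above every WT siGLO library. *Dnmt3a* rose in *Pds5a*-/- siGLO (1.06 ± 0.25, adjusted p = 0.00483), in *Pds5b*-/- siGLO (1.18 ± 0.25, adjusted p = 0.00244) and most in *Pds5a*-/- siPds5b (1.68 ± 0.25, adjusted p = 6.75e-05), all relative to the same WT siGLO libraries. WT siPds5b gave 5043, 3143 and 3449.6, overlapping WT siGLO, and was not called (0.29 ± 0.25, adjusted p = 0.9998). With library number as a replicate block edgeR did not call it either (0.27, adjusted p = 0.769). The call in *Pds5a*-/- siGLO was lost on leaving out WT siGLO library 2 (adjusted p = 0.0267), WT siGLO library 3 (0.0237) or *Pds5a*-/- siGLO library 1 (0.0290), and in an edgeR fit of only those 2 groups (0.0163). The call in *Pds5b*-/- siGLO was lost without WT siGLO library 2 (0.0148), WT siGLO library 3 (0.0125) or *Pds5b*-/- siGLO library 1 (0.0155). With all number 1 libraries left out, both calls held (0.92, adjusted p = 9.08e-08, and 1.09, adjusted p = 1.16e-08).

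*Dnmt3b*, the other catalytic de novo enzyme, counted 4879, 5949 and 6546 in WT siGLO, against 13708, 10574 and 9057 in *Pds5a*-/- siGLO and 9409.5, 8864 and 8069 in *Pds5b*-/- siGLO. The *Pds5a*-/- siPds5b libraries held 14413, 11941 and 10284, and WT siPds5b held 5244, 5620 and 6376. All 9 libraries of the 3 knockout groups exceeded the highest of the 3 WT siGLO libraries, while WT siPds5b overlapped them. *Dnmt3b* rose in *Pds5a*-/- siGLO (0.94 ± 0.15, adjusted p = 0.000185), *Pds5b*-/- siGLO (0.60 ± 0.15, adjusted p = 0.00669) and *Pds5a*-/- siPds5b (1.08 ± 0.15, adjusted p = 2.11e-05). In the *Pds5b*-null cells the call was lost without WT siGLO library 1 (adjusted p = 0.0340), WT siGLO library 2 (0.0189), *Pds5b*-/- siGLO library 1 (0.0313) or *Pds5b*-/- siGLO library 2 (0.0217), and also without the filter on low counts. In *Pds5a*-/- siGLO the call held in each of the 21 fits with 1 library left out (adjusted p at most 0.00163).

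*Dnmt3l*, which encodes the partner without catalytic activity, counted 7212, 4811 and 4755 in WT siGLO and 16890, 12069 and 9895 in *Pds5a*-/- siGLO. It counted 9104, 6821 and 7425 in *Pds5b*-/- siGLO and 23991, 19035 and 15774 in *Pds5a*-/- siPds5b. The *Pds5a*-/- libraries of both groups lay above all WT siGLO libraries, whereas those of *Pds5b*-/- siGLO overlapped them. *Dnmt3l* rose in *Pds5a*-/- siGLO (1.21 ± 0.23, adjusted p = 0.00111) and in *Pds5a*-/- siPds5b (1.81 ± 0.24, adjusted p = 1.68e-05), the largest increase of any of the 8 tested genes. The edgeR fit of only WT siGLO and *Pds5a*-/- siGLO did not call it (0.0245). In *Pds5b*-/- siGLO the change was not called (0.48 ± 0.23, adjusted p = 0.128), although it was when number 1 libraries were left out (0.58, adjusted p = 0.000271). The direct edgeR test of *Pds5a*-/- siGLO against *Pds5b*-/- siGLO did not separate the knockouts for *Dnmt3l* (0.73 ± 0.23, adjusted p = 0.0233) with all libraries, and did without number 1 libraries (0.62, adjusted p = 0.000106). For *Dnmt3a* and *Dnmt3b* the same test gave -0.12 ± 0.24, adjusted p = 0.752, and 0.34 ± 0.15, adjusted p = 0.0977.

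*Dnmt1*, the maintenance methyltransferase, counted 6049, 6364.5 and 6532 in WT siGLO, 5572, 5599.5 and 5911 in *Pds5a*-/- siGLO and 7589.6, 7271 and 6398 in *Pds5b*-/- siGLO. The *Pds5a*-/- siPds5b libraries counted 5475, 5274 and 5506. All libraries of *Pds5a*-/- siGLO and *Pds5a*-/- siPds5b lay below the lowest of WT siGLO, and those of *Pds5b*-/- siGLO overlapped WT siGLO. Relative to WT siGLO, *Dnmt1* was not called in *Pds5a*-/- siGLO (-0.15 ± 0.07, adjusted p = 0.115), *Pds5b*-/- siGLO (0.17 ± 0.07, adjusted p = 0.0710) or *Pds5a*-/- siPds5b (-0.22 ± 0.07, adjusted p = 0.0123). The last of these was close to the threshold and was called without *Pds5b*-/- siGLO library 1 (adjusted p = 0.00900), *Pds5b*-/- siGLO library 3 (0.00700) or *Pds5a*-/- siStag2 library 1 (0.00470), without all number 1 libraries (0.00524), and by DESeq2 (0.00685). The direct comparison of *Pds5a*-/- siGLO with *Pds5b*-/- siGLO called *Dnmt1* as lower in the *Pds5a*-null cells (-0.32 ± 0.07, adjusted p = 0.00139), with no overlap of the 3 and 3 libraries. This call was absent when only those 2 groups were fitted (adjusted p = 0.0146) and held in each of the 21 fits with 1 library left out.

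*Uhrf1*, whose product brings DNMT1 to hemimethylated DNA, counted 9685, 10593 and 9902 in WT siGLO and 9856, 10463 and 9706 in WT siPds5b. Counts were 7937, 8443 and 8616 in *Pds5a*-/- siGLO, 8004.5, 8067 and 7789.6 in *Pds5b*-/- siGLO and 7852, 7577 and 8528.5 in *Pds5a*-/- siPds5b. No library of the 3 knockout groups reached the lowest of WT siGLO. *Uhrf1* fell in *Pds5a*-/- siGLO (-0.27 ± 0.06, adjusted p = 0.00214), *Pds5b*-/- siGLO (-0.34 ± 0.06, adjusted p = 0.000272) and *Pds5a*-/- siPds5b (-0.33 ± 0.06, adjusted p = 0.000150). The first call was lost without WT siGLO library 2 (adjusted p = 0.0140) or *Pds5a*-/- siGLO library 1 (0.0110). Between *Pds5a*-/- siGLO and *Pds5b*-/- siGLO *Uhrf1* gave 0.07 ± 0.06, adjusted p = 0.441. Of the annotated 75-base words in *Uhrf1* exons, 11.33% also occur in *Gm5648*, and 7.725% of those in *Dnmt3b* occur in *Dnmt3c*, so some reads of these 2 members could have been counted elsewhere or dropped.

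*Tet1* encodes a dioxygenase with an abundant transcript in mESCs. It counted 12576, 8936 and 8892 in WT siGLO, 11802, 7175 and 9278 in *Pds5a*-/- siGLO and 16768, 14348 and 12009 in *Pds5b*-/- siGLO. The *Pds5a*-/- siPds5b libraries gave 8821, 7204 and 7722, just below all of WT siGLO, while both siGLO knockout groups overlapped it. *Tet1* was not called in *Pds5a*-/- siGLO (-0.11 ± 0.21, adjusted p = 0.753), *Pds5b*-/- siGLO (0.50 ± 0.21, adjusted p = 0.0742) or *Pds5a*-/- siPds5b (-0.36 ± 0.21, adjusted p = 0.175). Without the number 1 libraries *Tet1* was called as higher in *Pds5b*-/- siGLO than in WT siGLO (0.57, adjusted p = 0.000820) and as lower in *Pds5a*-/- siGLO than in *Pds5b*-/- siGLO (-0.68, adjusted p = 0.000124). With all libraries that direct comparison gave -0.61 ± 0.21, adjusted p = 0.0336.

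*Tet2*, which encodes a second dioxygenase, counted 3541, 2637 and 2601 in WT siGLO, 1838.5, 1289.7 and 1931.5 in *Pds5a*-/- siGLO and 2723, 2328 and 2116 in *Pds5b*-/- siGLO. In *Pds5a*-/- siPds5b it was down to 1119, 1030.4 and 1376, and in WT siPds5b it was 3384, 2735 and 3102. The *Pds5a*-/- siGLO and *Pds5a*-/- siPds5b libraries all lay below WT siGLO, while *Pds5b*-/- siGLO and WT siPds5b overlapped it. *Tet2* fell in *Pds5a*-/- siGLO (-0.80 ± 0.17, adjusted p = 0.00161) and in *Pds5a*-/- siPds5b (-1.32 ± 0.17, adjusted p = 7.00e-06), the largest decrease of any of the 8 tested genes, but was not called in *Pds5b*-/- siGLO (-0.29 ± 0.16, adjusted p = 0.186). The call in *Pds5a*-/- siGLO was lost without WT siGLO library 1 (adjusted p = 0.0107), without all number 1 libraries (-0.70, adjusted p = 0.0156) and when only the 2 groups were fitted (0.0188). The direct test of the 2 knockouts gave -0.50 ± 0.17, adjusted p = 0.0282, which DESeq2 called (adjusted p = 0.00509), so by edgeR a difference between them for *Tet2* was not shown.

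*Tet3*, the dioxygenase gene with the lowest level of the tested set, counted 365, 394 and 337 in WT siGLO, 314, 366 and 376 in *Pds5a*-/- siGLO and 500.4, 517 and 380.5 in *Pds5b*-/- siGLO. The *Pds5a*-/- siPds5b libraries counted 469, 488 and 507, above every library of WT siGLO and of *Pds5a*-/- siGLO, while *Pds5a*-/- siGLO and *Pds5b*-/- siGLO overlapped WT siGLO. *Tet3* rose in *Pds5a*-/- siPds5b relative to WT siGLO (0.42 ± 0.12, adjusted p = 0.00631). It was not called in *Pds5a*-/- siGLO (-0.05 ± 0.12, adjusted p = 0.795) or *Pds5b*-/- siGLO (0.35 ± 0.12, adjusted p = 0.0281). The *Tet3* call in *Pds5a*-/- siPds5b was lost without WT siGLO library 1 (adjusted p = 0.0200), WT siGLO library 3 (0.0409) or library 1, 2 or 3 of *Pds5a*-/- siPds5b (0.0115, 0.0192 and 0.0267). In *Pds5b*-/- siGLO the *Tet3* change became a call without *Pds5b*-/- siGLO library 3 (adjusted p = 0.00304). Between *Pds5a*-/- siGLO and *Pds5b*-/- siGLO it gave -0.40 ± 0.12, adjusted p = 0.0126, which was called in DESeq2 (0.00466), and in edgeR without *Pds5b*-/- siGLO library 3 (0.00114), *Pds5a*-/- siStag2 library 1 (0.00790) or *Pds5a*-/- siStag2 library 3 (0.00929).

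*Tdg*, the gene of the thymine DNA glycosylase that excises oxidized methylcytosine, was listed at 0 in all 21 libraries, so no fold change exists for it. The pseudogene *Gm9855*, which matches *Tdg* exons at 99.246% over 1194 bases, was also at 0 in all 21 libraries. Of the 75-base words of annotated *Tdg* exons, 55.78% occur in other annotated genes, most of them in *Tdg-ps*, a symbol the count files do not list. *Tdg* exons also overlap those of *Glt8d2* on the opposite strand by 367 bases. A count of 0 was not rare, at 3283 of the 23412 symbols, and included 1 of 80 ribosomal protein symbols, *Rpl26*. Because the counting tool and its treatment of shared reads are not given, absence of *Tdg* RNA and loss of its reads in counting cannot be told apart.

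**Figure D2:**
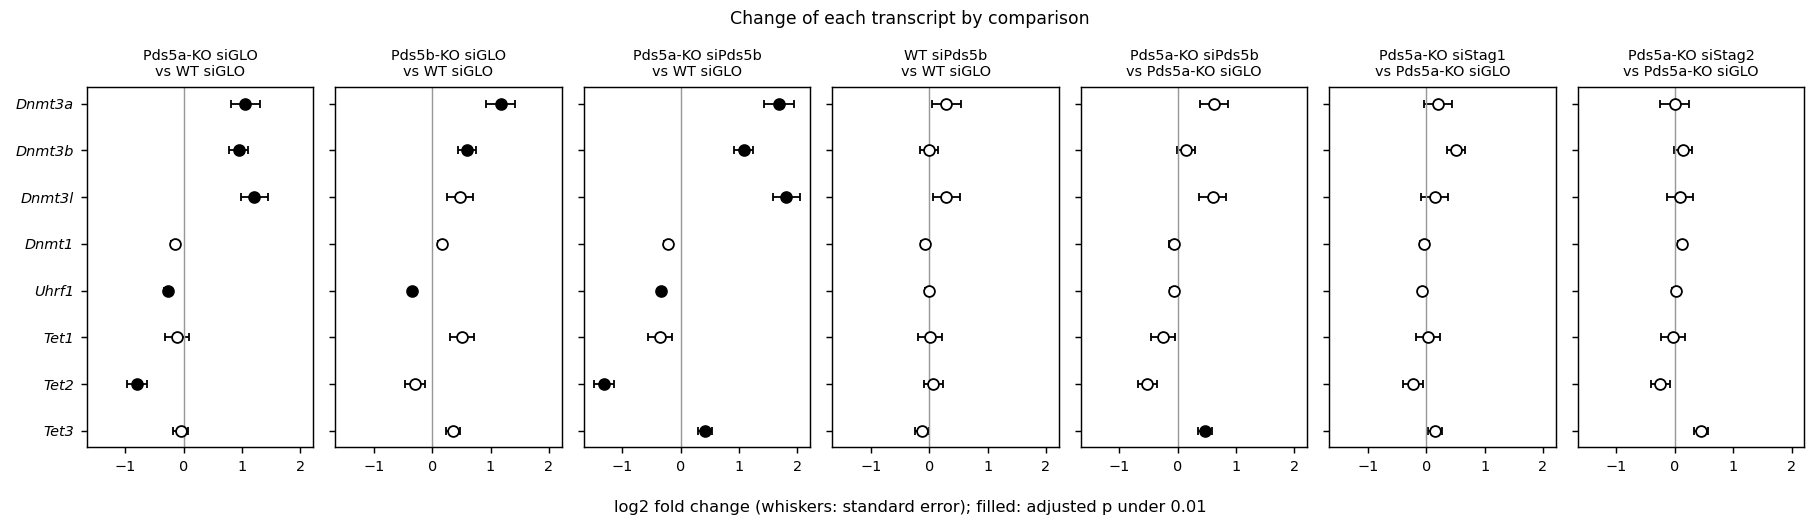
Log2 fold changes (points) with standard errors (bars) of the 8 tested genes in 7 comparisons of the 3-library groups, 1 panel per comparison, filled where the edgeR adjusted p was under 0.01. Against WT siGLO, *Dnmt3a*, *Dnmt3b* (right of 0) and *Uhrf1* (left of 0) are filled in all 3 knockout panels, *Dnmt3l* (right) and *Tet2* (left) in the 2 Pds5a-KO panels, and *Tet3* (right) in that of Pds5a-KO siPds5b.

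Counted over the set, 5 of the 8 tested genes were called in *Pds5a*-/- siGLO relative to WT siGLO (3 up, 2 down), where 17.8 percent of all tested genes were called (9.63 percent up and 8.12 percent down). In *Pds5b*-/- siGLO 3 of 8 were called (2 up, 1 down), against 18.2 percent of all tested genes (9.64 percent up and 8.57 percent down). In *Pds5a*-/- siPds5b 6 of 8 were called (4 up, 2 down), against 32 percent of all tested genes (17.4 percent up and 14.6 percent down). The median log2 fold change of the 8 was -0.079, 0.414 and 0.099 in these 3 comparisons, and that of all tested genes was 0.002, -0.003 and -0.001. These comparisons share the WT siGLO libraries, so their results are not independent of each other. The direct test of *Pds5a*-/- siGLO against *Pds5b*-/- siGLO called 1 of 8 (*Dnmt1*), with 19.2 percent of all tested genes called. The WT siPds5b libraries counted 8721, 5672.5 and 6168 for *Dnmt3l*, 6034, 6123 and 5852 for *Dnmt1*, 11791, 8726 and 10324 for *Tet1* and 336, 361 and 312 for *Tet3*, all overlapping WT siGLO. The log2 fold changes of the 8 in WT siPds5b were 0.29 for *Dnmt3a*, -0.01 for *Dnmt3b*, 0.29 for *Dnmt3l*, -0.07 for *Dnmt1*, -0.01 for *Uhrf1*, 0.02 for *Tet1*, 0.07 for *Tet2* and -0.12 for *Tet3*, each with an edgeR adjusted p of 0.9998. In WT siPds5b relative to WT siGLO edgeR called 0 of 8 (0.00668 percent of all tested genes, which is 1 gene), and DESeq2 also called 0. An edgeR unadjusted p under 0.05 was found for 0 of 8, and for 631 of all 14963 tested genes. Same-number libraries went together here (correlation of their deviations from the group mean 0.345 to 0.525). In numbers 1, 2 and 3, *Dnmt3a* differed by 0.45, 0.18 and 0.18 on the log2 scale and *Dnmt3l* by 0.27, 0.24 and 0.375. *Dnmt1* (-0.004, -0.06 and -0.16) and *Tet3* (-0.12, -0.13 and -0.11) were lower in each pair, and the others had mixed signs. The share of all tested genes with 1 sign in all pairs was not counted, so these signs carry no test. With library number as a replicate block 0 of 8 were called, and 3 of all 14963 tested genes. In *Pds5a*-/- siGLO the count was 2 of 8 when only the 2 groups were fitted, 4 of 8 without number 1 libraries, and 5 of 8 by DESeq2. Over all genes the same fits called 1790 of 14144 tested, 2882 of 14974 tested and 3019 of 20129 in DESeq2. The 20129 are all genes with a read in any library, including any without an adjusted p in DESeq2. The DESeq2 share is therefore not on the same footing as those of edgeR.

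Adding siPds5b to *Pds5a*-null cells was compared with *Pds5a*-/- siGLO, whose libraries enter 6 of the 12 comparisons. Libraries of the same number went together here (correlation of their deviations from the group mean 0.331 to 0.676 over 12176 genes), so differences were also taken within a number. Between *Pds5a*-/- siPds5b and *Pds5a*-/- siGLO, *Dnmt3a* differed by 0.49, 0.69 and 0.75 on the log2 scale in numbers 1, 2 and 3. The same differences were 0.51, 0.66 and 0.67 for *Dnmt3l*, -0.72, -0.32 and -0.49 for *Tet2* and 0.58, 0.42 and 0.43 for *Tet3*, and each had 1 sign in 3 of 3 pairs. So had *Dnmt3b* (0.07, 0.17 and 0.18), *Dnmt1* (-0.03, -0.09 and -0.10) and *Uhrf1* (-0.02, -0.16 and -0.01), by smaller amounts, which leaves *Tet1* with mixed signs (-0.42, 0.006 and -0.27). How many of all tested genes had 1 sign in 3 of 3 pairs was not counted, so these signs carry no test. Without pairing, edgeR called 1 of 8, *Tet3* (0.47 ± 0.12, adjusted p = 0.00870), against 7.59 percent of all tested genes. The others were not called: *Dnmt3a* 0.62 ± 0.25, adjusted p = 0.104, *Dnmt3l* 0.60 ± 0.23, adjusted p = 0.0927, *Tet2* -0.52 ± 0.17, adjusted p = 0.0441, and *Dnmt3b* 0.14 ± 0.15, adjusted p = 0.601. The remaining changes were -0.07 for *Dnmt1*, -0.06 for *Uhrf1* and -0.25 for *Tet1* (adjusted p from 0.456 to 0.559). With library number as a replicate block, which called 1568 of all 14963 tested genes where the fit without it called 1136, 4 of 8 were called, *Tet3* together with *Dnmt3a* (0.64, adjusted p = 0.000244), *Dnmt3l* (0.61, 4.16e-05) and *Tet2* (-0.51, 0.00512).

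The *Tet3* call relative to *Pds5a*-/- siGLO held in 8 of the 21 fits with 1 library left out. It was lost without WT siGLO library 1, 2 or 3 (adjusted p = 0.0107, 0.0105 and 0.0106), WT siPds5b library 1 or 2 (0.01002 and 0.01003), and *Pds5a*-/- siGLO library 1, 2 or 3 (0.0510, 0.0235 and 0.0123). It was also lost without *Pds5a*-/- siPds5b library 1, 2 or 3 (0.0144, 0.0289 and 0.0343) and *Pds5a*-/- siStag1 library 2 or 3 (0.0104 and 0.0111). Leaving out all number 1 libraries gave *Tet3* 0.43 (adjusted p = 0.0300), while *Dnmt3a* and *Dnmt3l* were then called (0.72, 8.21e-06, and 0.67, 0.000124).

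Whether siPds5b acted on the set differently in the 2 genotypes was tested as the genotype by siPds5b interaction, the siPds5b change in *Pds5a*-null cells minus that in WT cells. edgeR called 0 of 8 (1.48 percent of all tested genes), 2 of 8 had an unadjusted p under 0.05, and DESeq2 called 0. The largest interactions were those of *Tet3* (0.59 ± 0.17, adjusted p = 0.0522) and *Tet2* (-0.59 ± 0.24, adjusted p = 0.191). For *Dnmt3a* and *Dnmt3l* the interaction was 0.33 ± 0.35, adjusted p = 0.691, and 0.30 ± 0.32, adjusted p = 0.691. It was 0.15 for *Dnmt3b*, 0.0014 for *Dnmt1*, -0.05 for *Uhrf1* and -0.27 for *Tet1* (adjusted p from 0.695 to 0.9976). A larger effect of siPds5b without PDS5A was therefore not shown for any member.

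The STAG subunits of cohesin were depleted in the same *Pds5a*-null line. *Dnmt3b* counted 16753, 16893 and 13691 after siStag1 and 13762, 12452 and 10649 after siStag2. *Dnmt3l* counted 16504, 13549 and 12857 after siStag1 and 14742, 14454 and 12226 after siStag2, and *Dnmt3a* 9750.1, 7104 and 5892 and 6596, 7133 and 6023. The *Dnmt3b* libraries of siStag1 overlapped those of *Pds5a*-/- siGLO by a narrow margin, and the other values overlapped widely. edgeR called 0 of 8 after siStag1 (0.0936 percent of all tested genes), with 1 of 8 at an unadjusted p under 0.05 and 0 by DESeq2. The nearest was *Dnmt3b* (0.51 ± 0.15, adjusted p = 0.183), called without the number 1 libraries (0.64, adjusted p = 0.00684). The other changes after siStag1 were 0.20 for *Dnmt3a*, 0.14 for *Dnmt3l*, -0.03 for *Dnmt1*, -0.07 for *Uhrf1*, 0.03 for *Tet1*, -0.23 for *Tet2* and 0.14 for *Tet3* (adjusted p from 0.684 to 0.979). After siStag2 edgeR also called 0 of 8 (2.24 percent of all tested genes), with 1 of 8 at an unadjusted p under 0.05 and 1 by DESeq2, *Tet3* (0.45 ± 0.12, adjusted p = 0.0213, and 0.00745 in DESeq2). Without the number 1 libraries *Tet3* gave 0.25 in edgeR (adjusted p = 0.346). Leaving out *Pds5a*-/- siStag2 library 1 took the genes called from 335 to 68. The other changes after siStag2 were -0.0042 for *Dnmt3a*, 0.15 for *Dnmt3b*, 0.09 for *Dnmt3l*, 0.13 for *Dnmt1*, 0.02 for *Uhrf1*, -0.03 for *Tet1* and -0.25 for *Tet2* (adjusted p from 0.267 to 0.994).

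*Tet2* averaged 1441 ± 64.1 after siStag1 and 1418 ± 266 after siStag2, *Tet1* 9620.5 ± 411 and 9207 ± 2485, and *Tet3* 389 ± 32.4 and 481 ± 70. *Dnmt1* averaged 5572 ± 71.2 and 6211 ± 606, and *Uhrf1* 7961 ± 442 and 8429.5 ± 136. Among these 5 genes, the *Tet3* libraries after siStag2 all lay above *Pds5a*-/- siGLO, and the other groups overlapped it. Comparing the 2 STAG knockdowns, edgeR called 0 of 8 (0.394 percent of all tested genes), 3 of 8 had an unadjusted p under 0.05, and DESeq2 called 0. Leaving out siStag2 library 1 took the genes called from 59 to 6. The changes of siStag2 against siStag1 were -0.20 for *Dnmt3a*, -0.36 for *Dnmt3b*, -0.05 for *Dnmt3l*, 0.16 for *Dnmt1*, 0.08 for *Uhrf1*, -0.06 for *Tet1*, -0.02 for *Tet2* and 0.31 for *Tet3* (adjusted p at least 0.148). siPds5b against siStag1 gave 0 of 8 by edgeR (7.36 percent of all tested genes), with 2 of 8 at an unadjusted p under 0.05 and 0 by DESeq2. siPds5b against siStag2 gave 0 of 8 by edgeR (3.96 percent of all tested genes), with 3 of 8 at an unadjusted p under 0.05 and 0 by DESeq2. Here the genes called went from 593 to 272 without siStag2 library 1. Log2 fold changes against siStag1 were 0.42 for *Dnmt3a*, -0.37 for *Dnmt3b*, 0.45 for *Dnmt3l*, -0.04 for *Dnmt1*, 0.0046 for *Uhrf1*, -0.28 for *Tet1*, -0.29 for *Tet2* and 0.33 for *Tet3* (adjusted p at least 0.0648). Those against siStag2 were 0.63 for *Dnmt3a*, -0.01 for *Dnmt3b*, 0.51 for *Dnmt3l*, -0.20 for *Dnmt1*, -0.08 for *Uhrf1*, -0.22 for *Tet1*, -0.27 for *Tet2* and 0.02 for *Tet3* (adjusted p at least 0.0766). Without number 1 libraries 2 and 1 of 8 were called against siStag1 and siStag2, where that fit called 1185 and 441 of 14974 tested genes. Those against siStag1 were *Dnmt3a* (0.48, adjusted p = 0.000796) and *Dnmt3l* (0.40, 0.00977), and that against siStag2 was *Dnmt3a* (0.47, 0.00228). *Dnmt3l* was not called against siStag2 without these libraries (0.39, adjusted p = 0.022). Same-number libraries also went together in the last 2 comparisons, and with a replicate block *Dnmt3a* and *Dnmt3l* were higher after siPds5b than after siStag1 (0.43, adjusted p = 0.00660, and 0.44, 0.00135). Against siStag2 the blocked values were 0.60 (adjusted p = 0.000884) for *Dnmt3a* and 0.48 (0.00104) for *Dnmt3l*.

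Ordered by their range over the 7 group means, *Dnmt3l* spanned 1.82 on the log2 scale, *Dnmt3a* 1.68, *Dnmt3b* 1.46 and *Tet2* 1.39. *Tet1* spanned 0.85, *Tet3* 0.54, *Dnmt1* 0.38 and *Uhrf1* 0.34. *Dnmt3a* and *Dnmt3l* were highest in *Pds5a*-/- siPds5b, whereas *Dnmt3b* was highest in *Pds5a*-/- siStag1, and *Tet2* was lowest in *Pds5a*-/- siPds5b. As a description of the 7 group means, *Dnmt3l* and *Tet2* had a Pearson correlation of -0.982, *Dnmt3b* and *Tet2* of -0.921, and *Dnmt3a* and *Uhrf1* of -0.949. *Dnmt3l* had 0.898 with *Dnmt3b* and 0.884 with *Dnmt3a*. Among genes whose range was at least 0.5 of the member's, the most alike to *Dnmt3l* were *Tmem38a*, *Parp12* and *Psd4* (0.9915, 0.9906 and 0.9901 of 1254 genes). Those most alike to *Dnmt3a* were *Pim1*, *Itpripl2* and *Pdzd2* (0.9971, 0.9938 and 0.9857 of 1513 genes), and to *Dnmt3b* they were *Slc29a4*, *Dtx4* and *Camkv* (0.9866, 0.9789 and 0.9775 of 2018 genes). With 7 means and so many genes searched, correlations this high carry no test.

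Levels were compared between members per kilobase of annotated exon. In WT siGLO *Uhrf1* stood at 2743 ± 129, *Dnmt3l* at 2095 ± 525, *Dnmt3b* at 1339 ± 195, *Dnmt1* at 1002 ± 38.9 and *Tet1* at 705 ± 147 normalized counts per kilobase. *Dnmt3a* stood at 319 ± 47.5, *Tet2* at 318 ± 57.9 and *Tet3* at 31.1 ± 2.42. In *Pds5a*-/- siPds5b the order began with *Dnmt3l* at 7341 ± 1550 and *Dnmt3b* at 2823 ± 480.3, above *Uhrf1* at 2178 ± 133.5. The top place in WT siGLO depended on the length used, since by the longest transcript *Dnmt3l* came to 3070 and *Uhrf1* to 2805. Gene-level counts do not separate isoforms, such as the long and short forms of *Dnmt3a* and *Tet1*.

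The annotated promoters of the 4 members with the largest ranges were read for CpG content. Over 32851 mouse promoters of 300 bases (250 before the start and 50 after it, RefSeq GRCm38.p6), the median was 7 CpG and a GC content of 52.7%. *Dnmt3a* has 3 such promoters, of which the 2 at the start of the gene overlap each other, so that part of each count below is shared, and have 46 and 47 CpG (more than 98.4% and 98.6% of promoters) and 6 and 7 copies of the GC box GGGCGG, the core site of SP1-type factors. *Dnmt3l* also has 3, with 6, 4 and 3 CpG from the first to the last. Below, capitals mark each CpG and all other bases are in lower case. The third promoter of *Dnmt3a*, at a start inside the gene (transcript Dnmt3a-203, chromosome 12, 3891494 to 3891793, plus strand, in intron 6 of the longest coding transcript) has 18 CpG, more than 70.3% of promoters.
Dnmt3a promoter 3: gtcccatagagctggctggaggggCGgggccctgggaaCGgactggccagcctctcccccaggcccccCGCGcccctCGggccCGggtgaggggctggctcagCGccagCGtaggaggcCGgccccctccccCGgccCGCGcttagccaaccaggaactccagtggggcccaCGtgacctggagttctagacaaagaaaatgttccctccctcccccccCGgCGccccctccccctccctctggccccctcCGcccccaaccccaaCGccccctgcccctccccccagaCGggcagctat
That of *Dnmt3b* (chromosome 2, 153649199 to 153649498, plus strand) has 30 CpG, more than 88.3% of promoters.
Dnmt3b promoter 1: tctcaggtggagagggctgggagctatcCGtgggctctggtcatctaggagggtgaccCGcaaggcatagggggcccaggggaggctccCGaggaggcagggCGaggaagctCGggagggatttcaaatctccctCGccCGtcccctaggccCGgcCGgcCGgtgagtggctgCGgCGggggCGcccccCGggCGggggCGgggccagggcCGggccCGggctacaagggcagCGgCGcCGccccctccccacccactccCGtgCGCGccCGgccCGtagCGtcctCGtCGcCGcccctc
The first promoter of *Dnmt3l* (chromosome 10, 78042037 to 78042336, plus strand, start in exon 1 of the longest coding transcript) has 6 CpG, more than 43.6% of promoters.
Dnmt3l promoter 1: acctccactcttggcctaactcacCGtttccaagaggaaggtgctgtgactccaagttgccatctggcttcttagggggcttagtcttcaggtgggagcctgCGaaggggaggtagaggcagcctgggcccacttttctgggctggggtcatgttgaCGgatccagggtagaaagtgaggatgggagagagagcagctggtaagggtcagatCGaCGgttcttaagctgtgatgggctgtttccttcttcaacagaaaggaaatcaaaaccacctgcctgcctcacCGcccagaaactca
The promoter of *Tet2* (chromosome 3, 133544341 to 133544640, minus strand, start in exon 1) has 57 CpG, more than 99.8% of promoters.
Tet2 promoter 1: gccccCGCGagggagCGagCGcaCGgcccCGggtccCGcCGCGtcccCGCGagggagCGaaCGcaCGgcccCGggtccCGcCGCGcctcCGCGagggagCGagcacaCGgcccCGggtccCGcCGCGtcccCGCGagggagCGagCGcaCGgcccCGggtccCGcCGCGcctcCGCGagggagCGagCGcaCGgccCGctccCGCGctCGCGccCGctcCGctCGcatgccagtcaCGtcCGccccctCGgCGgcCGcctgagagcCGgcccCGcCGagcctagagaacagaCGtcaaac
The GC box occurs on either strand in 2, 4, 1 and 1 copies in these 4 sequences in the order shown, and in 35.7% of all promoters. Which start site was used, and whether any site was methylated, cannot be read from gene counts.

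Genes that act with the set were read from fixed lists, for *Pds5a*-/- siGLO, then *Pds5b*-/- siGLO, then *Pds5a*-/- siPds5b, each relative to WT siGLO. Over all tested genes 9.63, 9.64 and 17.4 percent rose and 8.12, 8.57 and 14.6 percent fell in these 3 comparisons. Of 16 tested cofactors of DNMT1 and the de novo enzymes, 3 fell in *Pds5a*-/- siGLO, led by *Cdca7l* (-0.69) and *Pcna* (-0.47), and the list median in the 3 comparisons was -0.022, -0.032 and -0.105. In *Pds5b*-/- siGLO 5 rose, led by *Nsd1* (0.43), and 3 fell, led by *Pcna* (-0.48). In *Pds5a*-/- siPds5b 3 rose, led by *Nsd1* (0.51), and 6 fell, led by *Cdca7l* (-0.81) and the imprint-binding *Zfp57* (-0.77). Of 19 TET and TDG partners and repair genes, *Gadd45g* (2.07) and *Gadd45a* (0.86) rose and *Neil3* (-0.56) fell in *Pds5a*-/- siGLO, with list medians of -0.085, 0.023 and -0.216. *Gadd45a* rose in *Pds5b*-/- siGLO (0.77), and in *Pds5a*-/- siPds5b 2 rose and 5 fell, among them *Neil1* (-0.77), *Cxxc5* (-0.56) and *Mbd4* (-0.54). Of 9 methyl-CpG readers 1, *Mbd3*, rose in each comparison (0.40, 0.26 and 0.41), with list medians of -0.126, 0.044 and 0.075.

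*Prdm14*, a repressor of *Dnmt3a*, *Dnmt3b* and *Dnmt3l* in naive mESCs, counted 625, 607 and 544 in WT siGLO, 289, 312 and 336 in *Pds5a*-/- siGLO, 317, 325 and 319 in *Pds5b*-/- siGLO and 62.2, 82.9 and 85.7 in *Pds5a*-/- siPds5b. Its libraries in the 3 knockout groups lay below those of WT siGLO. *Prdm14* gave -0.92 ± 0.16, adjusted p = 0.000111 in *Pds5a*-/- siGLO, -0.89 ± 0.16, adjusted p = 0.000173 in *Pds5b*-/- siGLO and -2.95 ± 0.18, adjusted p = 8.49e-12 in *Pds5a*-/- siPds5b. After siStag1 and siStag2 *Prdm14* averaged 171 ± 61.3 and 130.3 ± 14.8. *Dppa3*, whose product keeps UHRF1 off chromatin, averaged 177 ± 36.8, 1072 ± 239.6, 478 ± 123 and 967 ± 202 in the same 4 groups and rose on the log2 scale by 2.61, 1.45 and 2.46. The 12 listed regulators had 1 up and 4 down in *Pds5a*-/- siGLO, 2 up and 1 down in *Pds5b*-/- siGLO and 4 up and 3 down in *Pds5a*-/- siPds5b, with medians of -0.158, 0.009 and 0.168. Of the 4 down in *Pds5a*-/- siGLO, 3 were *Zscan4c*, *Zscan4d* and *Zscan4f*, near-identical copies that may share reads and are also on the 2-cell-like list. Of 12 ground and naive state genes 8, 9 and 12 fell in the 3 comparisons, where 8.12, 8.57 and 14.6 percent of all tested genes fell, with *Tbx3* at -1.42, -1.90 and -2.56 and medians of -0.783, -0.82 and -1.917. Of 16 formative and primed genes 4 fell in *Pds5a*-/- siGLO and 2 in *Pds5b*-/- siGLO, led by *Fgf5* (-3.12 and -3.49). In *Pds5a*-/- siPds5b 3 rose, led by *Lef1* (1.28) and *Pou3f1* (1.25), and 3 fell, led by *Fgf5* (-1.63), the list medians being -0.325, -0.145 and -0.155. Whether *Prdm14* or the lower naive state genes account for the de novo enzymes was not tested.

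Markers of other cell types differed between the groups in which the set was read. The lists share genes, so their counts are not independent of each other. *Esrrb* and *Zfp42* are both naive state genes and identity markers, and *Eomes* is on the trophoblast list and the formative and primed list. In the same 3 comparisons 17.8, 18.2 and 32 percent of all tested genes were called (9.63, 9.64 and 17.4 percent up). Of 8 tested trophoblast markers 6 rose and 1 fell in *Pds5a*-/- siGLO, led by *Hand1* (3.50), *Krt18* (3.31) and *Krt8* (3.04). In *Pds5b*-/- siGLO 1 rose, *Cdx2* (2.94), and 2 fell, and in *Pds5a*-/- siPds5b 5 rose and 1 fell (medians 1.519, 0.652 and 1.843; *Elf5* was not tested). Of 7 tested neuroectoderm markers 2 fell in *Pds5a*-/- siGLO, *Sox1* (-1.28) and *Nes* (-0.96), and 3 rose in *Pds5b*-/- siGLO, led by *Pax6* (2.20), with 1 up and 3 down in *Pds5a*-/- siPds5b (medians 0.472, 0.883 and 0.665; *Hes5* was not tested). Of 9 primitive endoderm markers *Col4a1* rose in *Pds5b*-/- siGLO (1.45) and no other was called in these 3 comparisons (medians 0.458, 0.801 and 0.463). Of 7 tested fibroblast and feeder markers 3 fell in *Pds5b*-/- siGLO, led by *Acta2* (-1.67), and 1 fell in *Pds5a*-/- siPds5b (medians -0.265, -1.67 and 0.078). Of 10 mESC identity markers 4, 4 and 5 fell, and 1 rose in *Pds5b*-/- siGLO and in *Pds5a*-/- siPds5b (medians -0.15, -0.252 and -0.391). Of 12 tested cohesin genes *Mau2* (0.30) and *Ctcf* (0.28) rose beside the loss of *Pds5b* in *Pds5b*-/- siGLO, and *Rad21* (-0.24) fell in *Pds5a*-/- siPds5b with *Pds5a* and *Pds5b* (medians -0.128, 0.168 and -0.119). Relative to *Pds5a*-/- siGLO, where 7.59 percent of all tested genes were called, siPds5b in *Pds5a*-null cells lowered 11 of 12 naive state genes (median -1.121), 5 of 10 identity markers, 1 cofactor, *Trim28* (-0.46), and 1 trophoblast marker, *Tfap2c* (-0.86). It raised 3 of 16 formative and primed genes (median 0.279) and raised 4 (3 of them the same *Zscan4* copies) and lowered 2 of 12 methylation regulators (median 0.24). Of 7 tested neuroectoderm markers it raised 1 and lowered 1, *Tubb3* (median -0.156). How much of the change in a member came from cells of other types cannot be read from these counts.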

How the data were processed

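Gene counts of 21 poly-A RNA-seq libraries (150 bp paired-end) were used as deposited: the authors aligned reads to mm10 with STAR and deposited one raw count per gene symbol and library, without normalization. The labels give no counting tool, strand setting or annotation. Library totals ran from 17311090 to 23989198 counts (median 19628146), and chi-square per gene between replicates was 4.98 to 26.7, above counting noise.

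All 21 libraries were fitted in 1 model of 7 groups in edgeR 4.0.16 (R 4.3.3, limma 3.58.1), with filterByExpr, TMM scaling and a robust quasi-likelihood F test on 14 residual degrees of freedom. The Benjamini-Hochberg adjustment ran over 14963 genes in each of 12 comparisons, with calls at adjusted p under 0.01. All adjusted p-values are from this genomewide model or the named alternative, with 3 libraries a group. On simulated data for *Pds5a*-/- siGLO against WT siGLO, 200 genes were changed (40 per fold size) and edgeR tested 14728 genes. It called 87.5% at 3-fold, 72.5% at 2-fold, 50% at 1.5-fold, 27.5% at 0.667-fold and 57.5% at 0.5-fold. Of its calls 2.48% were false (DESeq2, 7.19%), both above the share that the 0.01 threshold aims at. Libraries were drawn independently, with no shift shared by library number and no change in other groups. In the data 17.8 percent of tested genes were called and the number 1 libraries stood apart, so these shares need not hold there.

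The alternatives were DESeq2 1.42.0, a 0.05 threshold, a log2 fold change of at least 0.5, RLE or library size scaling, no filter, at least 10 counts in every library, a replicate block, only the groups compared, and each library left out. Leaving out the libraries numbered 1 was added after seeing the data. A replicate block is read where every same-number pair correlated above 0.1 over 12176 genes.

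The 9 genes and the gene lists were chosen with earlier results of these data known. The 8 tested genes are reported in all 12 comparisons and *Tdg* by its counts. From each list, the counts called and at most the 3 called genes with the largest increase and decrease (mean log2 CPM of at least 0) are named, for the 3 knockout comparisons with WT siGLO and for siPds5b in *Pds5a*-null cells. The 4 targeted genes are given for the groups they bear on. For likeness, the 3 members with the largest range were compared with genes of mean log2 CPM of at least 3. Exon lengths, shared words and coordinates are from GENCODE vM21, and promoters from RefSeq GRCm38.p6.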

Additional observations from a re-analysis of the deposited data

Results flagged for a closer look

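*Dnmt1* was set apart by the direct edgeR test between the knockouts, with a log2 fold change of -0.32 ± 0.07, adjusted p = 0.00139 in *Pds5a*-/- siGLO relative to *Pds5b*-/- siGLO. It was called in that test as 1 of 8 tested genes, where 19.2 percent of all tested genes were called, and the call was absent when only the 2 groups were fitted (adjusted p = 0.0146). Neither knockout was called against WT siGLO. No test of single libraries as outliers was made.

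Further genes of the fixed lists were set apart by the interaction of genotype and siPds5b, the siPds5b change in *Pds5a*-null cells minus that in WT cells on the log2 scale. It called 1.48 percent of all tested genes, and 6 of 12 naive state genes, 3 of 10 identity markers, 4 of 12 methylation regulators, 2 of 21 methyl donor genes, 2 of 36 S phase genes, 1 of 8 trophoblast markers and 7 of 9 2-cell-like genes, some of them on 2 lists. Among naive state and identity genes the interaction was negative for *Esrrb* (-1.26 ± 0.11, adjusted p = 2.75e-07), *Klf4* (-1.21 ± 0.11, adjusted p = 3.99e-07), *Nr0b1* (-1.80 ± 0.21, adjusted p = 5.85e-05), *Zfp42* (-1.14 ± 0.14, adjusted p = 3.19e-05) and *Sox2* (-0.75 ± 0.10, adjusted p = 8.03e-05). It was also negative for *Prdm14* (-1.91 ± 0.24, adjusted p = 4.47e-05), the repressor of the *Dnmt3* genes, and for the trophoblast marker *Tfap2c* (-0.93 ± 0.19, adjusted p = 0.00493).

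Of the methyl donor genes, *Tdh* (-1.13 ± 0.15, adjusted p = 8.03e-05) and *Cbs* (-0.66 ± 0.13, adjusted p = 0.00342) had a negative interaction, as had the S phase genes *Rfc4* (-0.62 ± 0.13, adjusted p = 0.00789) and *Rrm2* (-0.46 ± 0.10, adjusted p = 0.00797). It was positive for the 2-cell-like genes *Zscan4c* (2.67 ± 0.44, adjusted p = 0.00213), *Zscan4d* (2.73 ± 0.45, adjusted p = 0.00223) and *Zscan4f* (2.69 ± 0.45, adjusted p = 0.00232). The same held for *Usp17la* (2.86 ± 0.48, adjusted p = 0.00108), *Usp17lc* (3.66 ± 0.53, adjusted p = 0.000206) and *Usp17le* (3.78 ± 0.46, adjusted p = 5.34e-05). Members of the *Zscan4* and *Usp17l* families have near-identical copies, so reads may be assigned to the wrong copy or dropped.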

How the results depend on the processing

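Direction and call were followed for the 96 combinations of 8 tested genes and 12 comparisons under 10 alternatives, and the cause of a difference was not tested unless the alternative itself removes libraries. Both stayed as in the edgeR fit in 88 of 96 at the 0.05 threshold, 90 with a log2 fold change minimum of 0.5, 94 with RLE scaling, 94 with library size alone, 93 without the filter and 94 with at least 10 counts in every library. They stayed so in 81 with a replicate block, 90 when only the groups compared were fitted, 91 in DESeq2 and 77 without the libraries numbered 1, an alternative chosen after seeing the data. No gene called in the edgeR fit changed its direction under any alternative. Every value of opposite sign below was called in neither fit. For the alternatives that follow, counts of genes or members called are listed only where they moved by more than a set share. Smaller moves of a count are left out.

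At an adjusted p threshold of 0.05, the genes called went to 4215 (from 2656) for *Pds5a*-/- siGLO against WT siGLO, 4677 (from 2725) for *Pds5b*-/- siGLO against WT siGLO, 4 (from 1) for WT siPds5b against WT siGLO, 2353 (from 1136) for *Pds5a*-/- siPds5b against *Pds5a*-/- siGLO, 50 (from 14) for *Pds5a*-/- siStag1 against *Pds5a*-/- siGLO, 1196 (from 335) for *Pds5a*-/- siStag2 against *Pds5a*-/- siGLO, 4849 (from 2873) for *Pds5a*-/- siGLO against *Pds5b*-/- siGLO, 358 (from 59) for *Pds5a*-/- siStag2 against *Pds5a*-/- siStag1, 2252 (from 1102) for *Pds5a*-/- siPds5b against *Pds5a*-/- siStag1, 1365 (from 593) for *Pds5a*-/- siPds5b against *Pds5a*-/- siStag2 and 578 (from 222) for the genotype by siPds5b interaction, since a wider threshold passes more genes. The members called were 2 (from 1) for *Pds5a*-/- siPds5b against *Pds5a*-/- siGLO, 1 (from 0) for *Pds5a*-/- siStag2 against *Pds5a*-/- siGLO and 5 (from 1) for *Pds5a*-/- siGLO against *Pds5b*-/- siGLO under the same choice. Relative to WT siGLO, *Dnmt1* in *Pds5a*-/- siPds5b (edgeR adjusted p = 0.0123) and *Tet3* in *Pds5b*-/- siGLO (0.0281) also passed.

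Fitting only the groups compared, the genes called went to 2 (from 1) for WT siPds5b against WT siGLO, 524 (from 1136) for *Pds5a*-/- siPds5b against *Pds5a*-/- siGLO, 8 (from 14) for *Pds5a*-/- siStag1 against *Pds5a*-/- siGLO, 99 (from 335) for *Pds5a*-/- siStag2 against *Pds5a*-/- siGLO, 1810 (from 2873) for *Pds5a*-/- siGLO against *Pds5b*-/- siGLO, 93 (from 59) for *Pds5a*-/- siStag2 against *Pds5a*-/- siStag1, 651 (from 1102) for *Pds5a*-/- siPds5b against *Pds5a*-/- siStag1, 264 (from 593) for *Pds5a*-/- siPds5b against *Pds5a*-/- siStag2 and 134 (from 222) for the genotype by siPds5b interaction, and the cause was not tested. The members called were 2 (from 5) for *Pds5a*-/- siGLO against WT siGLO, 0 (from 1) for *Pds5a*-/- siPds5b against *Pds5a*-/- siGLO, 0 (from 1) for *Pds5a*-/- siGLO against *Pds5b*-/- siGLO and 1 (from 0) for *Pds5a*-/- siPds5b against *Pds5a*-/- siStag2 under the same choice. The fit of only *Pds5a*-/- siGLO and WT siGLO called 1790 of 14144 tested genes.

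Without the libraries numbered 1, the genes called went to 7 (from 1) for WT siPds5b against WT siGLO, 101 (from 14) for *Pds5a*-/- siStag1 against *Pds5a*-/- siGLO and 139 (from 59) for *Pds5a*-/- siStag2 against *Pds5a*-/- siStag1, and the cause was not tested. The members called were 5 (from 3) for *Pds5b*-/- siGLO against WT siGLO, 2 (from 1) for *Pds5a*-/- siPds5b against *Pds5a*-/- siGLO, 1 (from 0) for *Pds5a*-/- siStag1 against *Pds5a*-/- siGLO, 3 (from 1) for *Pds5a*-/- siGLO against *Pds5b*-/- siGLO, 2 (from 0) for *Pds5a*-/- siPds5b against *Pds5a*-/- siStag1 and 1 (from 0) for *Pds5a*-/- siPds5b against *Pds5a*-/- siStag2 under the same choice. Over all 14974 tested genes that fit called 2407, 1110, 101, 2709, 1185 and 441 in these comparisons, in the same order. The sign turned for *Tet3* to 0.021 (from -0.053) in *Pds5a*-/- siGLO against WT siGLO, *Dnmt3a* to 0.25 (from -0.0042) in *Pds5a*-/- siStag2 against *Pds5a*-/- siGLO, *Uhrf1* to -0.022 (from 0.017) in *Pds5a*-/- siStag2 against *Pds5a*-/- siGLO, *Dnmt3a* to 0.013 (from -0.20) in *Pds5a*-/- siStag2 against *Pds5a*-/- siStag1, *Dnmt3l* to 0.011 (from -0.051) in *Pds5a*-/- siStag2 against *Pds5a*-/- siStag1 and *Uhrf1* to -0.025 (from 0.0046) in *Pds5a*-/- siPds5b against *Pds5a*-/- siStag1.

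Asking also for a log2 fold change of at least 0.5, the genes called went to 1669 (from 2725) for *Pds5b*-/- siGLO against WT siGLO, 197 (from 335) for *Pds5a*-/- siStag2 against *Pds5a*-/- siGLO, 1696 (from 2873) for *Pds5a*-/- siGLO against *Pds5b*-/- siGLO, 734 (from 1102) for *Pds5a*-/- siPds5b against *Pds5a*-/- siStag1 and 390 (from 593) for *Pds5a*-/- siPds5b against *Pds5a*-/- siStag2, since the added condition passes fewer genes. The members called were 0 (from 1) for *Pds5a*-/- siPds5b against *Pds5a*-/- siGLO and 0 (from 1) for *Pds5a*-/- siGLO against *Pds5b*-/- siGLO under the same choice. Of all 14963 tested genes, 793 and 1696 were called in these comparisons. Relative to WT siGLO the calls of *Uhrf1* in *Pds5a*-/- siGLO (-0.27), *Pds5b*-/- siGLO (-0.34) and *Pds5a*-/- siPds5b (-0.33) were also lost. So was that of *Tet3* in *Pds5a*-/- siPds5b (0.42).

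With library number as a replicate block, the genes called went to 3 (from 1) for WT siPds5b against WT siGLO, 48 (from 14) for *Pds5a*-/- siStag1 against *Pds5a*-/- siGLO, 677 (from 335) for *Pds5a*-/- siStag2 against *Pds5a*-/- siGLO, 276 (from 59) for *Pds5a*-/- siStag2 against *Pds5a*-/- siStag1, 891 (from 593) for *Pds5a*-/- siPds5b against *Pds5a*-/- siStag2 and 389 (from 222) for the genotype by siPds5b interaction, and the cause was not tested. The members called were 5 (from 3) for *Pds5b*-/- siGLO against WT siGLO, 4 (from 1) for *Pds5a*-/- siPds5b against *Pds5a*-/- siGLO, 5 (from 1) for *Pds5a*-/- siGLO against *Pds5b*-/- siGLO, 2 (from 0) for *Pds5a*-/- siPds5b against *Pds5a*-/- siStag1 and 2 (from 0) for *Pds5a*-/- siPds5b against *Pds5a*-/- siStag2 under the same choice. Over all 14963 tested genes the block called 3316, 1568, 3552, 1538 and 891 in these comparisons, in the same order. The sign turned for *Dnmt3a* to 0.042 (from -0.0042) in *Pds5a*-/- siStag2 against *Pds5a*-/- siGLO.

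Without the filter on low counts, the genes called went to 2 (from 1) for WT siPds5b against WT siGLO, and the cause was not tested. The sign turned for *Uhrf1* to -0.012 (from 0.0046) in *Pds5a*-/- siPds5b against *Pds5a*-/- siStag1 and *Dnmt1* to -0.013 (from 0.0014) in the genotype by siPds5b interaction.

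In DESeq2, the genes called went to 4 (from 1) for WT siPds5b against WT siGLO, 72 (from 14) for *Pds5a*-/- siStag1 against *Pds5a*-/- siGLO, 775 (from 335) for *Pds5a*-/- siStag2 against *Pds5a*-/- siGLO, 281 (from 59) for *Pds5a*-/- siStag2 against *Pds5a*-/- siStag1 and 415 (from 222) for the genotype by siPds5b interaction, and the cause was not tested. The members called were 1 (from 0) for *Pds5a*-/- siStag2 against *Pds5a*-/- siGLO and 3 (from 1) for *Pds5a*-/- siGLO against *Pds5b*-/- siGLO under the same choice. Of all 20129 genes with a read in any library, 775 and 3396 were called in these comparisons. *Dnmt1* in *Pds5a*-/- siPds5b against WT siGLO was also called by DESeq2 (adjusted p = 0.00685). The sign turned for *Dnmt3b* to 0.0004 (from -0.0088) in *Pds5a*-/- siPds5b against *Pds5a*-/- siStag2.

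With scaling by library size alone, the sign turned for *Dnmt3a* to 0.017 (from -0.0042) in *Pds5a*-/- siStag2 against *Pds5a*-/- siGLO and *Dnmt3b* to 0.0095 (from -0.0088) in *Pds5a*-/- siPds5b against *Pds5a*-/- siStag2, and the cause was not tested.

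With relative log expression (RLE) scaling in place of TMM, the members called were 2 (from 1) for *Pds5a*-/- siGLO against *Pds5b*-/- siGLO, the cause not being tested. That fit called 2839 of all 14963 tested genes. The sign turned for *Dnmt3b* to 0.0004 (from -0.0088) in *Pds5a*-/- siPds5b against *Pds5a*-/- siStag2.

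With at least 10 counts required in every library, the members called were 2 (from 1) for *Pds5a*-/- siGLO against *Pds5b*-/- siGLO, the cause not being tested. That fit called 2742 of all 12654 tested genes. The sign turned for *Dnmt3b* to 0.0028 (from -0.0088) in *Pds5a*-/- siPds5b against *Pds5a*-/- siStag2.

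Leaving out each of the 21 libraries in turn, the genes called ranged over 1763 to 2774 for *Pds5a*-/- siGLO against WT siGLO, 1704 to 2878 for *Pds5b*-/- siGLO against WT siGLO, 1 to 3 for WT siPds5b against WT siGLO, 689 to 1189 for *Pds5a*-/- siPds5b against *Pds5a*-/- siGLO, 4 to 21 for *Pds5a*-/- siStag1 against *Pds5a*-/- siGLO, 68 to 375 for *Pds5a*-/- siStag2 against *Pds5a*-/- siGLO, 1722 to 3038 for *Pds5a*-/- siGLO against *Pds5b*-/- siGLO, 6 to 97 for *Pds5a*-/- siStag2 against *Pds5a*-/- siStag1, 596 to 1190 for *Pds5a*-/- siPds5b against *Pds5a*-/- siStag1, 272 to 649 for *Pds5a*-/- siPds5b against *Pds5a*-/- siStag2 and 121 to 242 for the genotype by siPds5b interaction. The members called ranged over 3 to 5 for *Pds5a*-/- siGLO against WT siGLO, 1 to 4 for *Pds5b*-/- siGLO against WT siGLO, 0 to 1 for *Pds5a*-/- siPds5b against *Pds5a*-/- siGLO and 1 to 2 for *Pds5a*-/- siGLO against *Pds5b*-/- siGLO. For *Pds5a*-/- siPds5b against WT siGLO the genes called were 3836 to 4945 and the members called 5 to 7. Fewer libraries enter each of these fits, and which library mattered to each called gene is given with that gene.

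In the same fits some changes that were not called did not hold their sign, and the ranges follow. For *Pds5a*-/- siGLO against WT siGLO they were *Tet1* -0.31 to 0.078 and *Tet3* -0.11 to 0.015. For WT siPds5b against WT siGLO they were *Dnmt3b* -0.12 to 0.085, *Uhrf1* -0.040 to 0.025, *Tet1* -0.10 to 0.21 and *Tet2* -0.011 to 0.23. For *Pds5a*-/- siStag1 against *Pds5a*-/- siGLO they were *Dnmt3a* -0.025 to 0.47, *Dnmt3l* -0.017 to 0.39 and *Tet1* -0.13 to 0.23. For *Pds5a*-/- siStag2 against *Pds5a*-/- siGLO they were *Dnmt3a* -0.14 to 0.26, *Dnmt3l* -0.067 to 0.33, *Uhrf1* -0.015 to 0.045 and *Tet1* -0.28 to 0.17. For *Pds5a*-/- siGLO against *Pds5b*-/- siGLO it was *Dnmt3a* -0.40 to 0.080. For *Pds5a*-/- siStag2 against *Pds5a*-/- siStag1 they were *Dnmt3a* -0.35 to 0.017, *Dnmt3l* -0.12 to 0.063, *Tet1* -0.31 to 0.057 and *Tet2* -0.17 to 0.10. For *Pds5a*-/- siPds5b against *Pds5a*-/- siStag1 it was *Uhrf1* -0.047 to 0.044. For *Pds5a*-/- siPds5b against *Pds5a*-/- siStag2 they were *Dnmt3b* -0.15 to 0.10, *Tet1* -0.34 to 0.025 and *Tet3* -0.048 to 0.14. For the genotype by siPds5b interaction it was *Dnmt1* -0.022 to 0.033.

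The replicate block calls are read only where the same-number libraries went together, which was not so for the comparisons of knockouts with WT siGLO. Each knockout is 1 clone, so no result extends past these clones. Library totals ran from 17311090 to 23989198 counts, and *Tet3* had the fewest counts of the 8 tested genes. The spread between libraries (chi-square per gene of 4.98 to 26.7 over 21 replicate pairs) exceeds counting noise. Counting tool, strand setting and annotation are not given, gene-level counts do not separate isoforms, and RNA counts hold neither DNA methylation nor protein.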

Other observations

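Germline genes that are silenced by promoter methylation were read in the groups where 2 or 3 of the *Dnmt3* transcripts rose. *Rbm46* counted 6.87, 7.89 and 6.62 in WT siGLO, 29.5, 21.5 and 45.3 in *Pds5a*-/- siGLO, 29.6, 28.9 and 28.1 in *Pds5b*-/- siGLO and 45.3, 76.7 and 41.9 in *Pds5a*-/- siPds5b. *Sycp2* averaged 18.7 ± 6.72, 45.4 ± 16.1, 66 ± 9.01 and 128 ± 14.6 in the same order. Of 24 tested genes (*Asz1* was not), edgeR called 7 up and 4 down in *Pds5a*-/- siGLO, 8 up and 3 down in *Pds5b*-/- siGLO and 11 up and 2 down in *Pds5a*-/- siPds5b, relative to WT siGLO. Over all tested genes 9.63, 9.64 and 17.4 percent rose and 8.12, 8.57 and 14.6 percent fell in these comparisons. The list medians were 0.362, 0.392 and 0.593, beside 0.002, -0.003 and -0.001 over all tested genes. *Rbm46* rose by 2.16, 2.01 and 2.92 on the log2 scale and *Tdrd1* by 1.30, 1.98 and 1.99. *Tuba3a* went the other way (-1.11, -1.28 and -1.40), and *Dazl* fell in *Pds5a*-/- siGLO (-0.80). *Stk31* led the decreases in *Pds5a*-/- siGLO and also fell in *Pds5a*-/- siPds5b. siPds5b in *Pds5a*-null cells added 5 up, against 7.59 percent of all tested genes called, led by *Sycp2* (1.49), *Brdt* (1.40) and *Mael* (1.09). Methylation of these promoters cannot be read from RNA counts.

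Of the genes that supply the methyl donor, the largest decrease was that of *Tdh*, the threonine dehydrogenase that feeds it in mESCs. *Tdh* counted 7539.5, 9546 and 9458 in WT siGLO, 4754, 4587 and 4458 in *Pds5a*-/- siGLO, 3959.5, 4597 and 4549.5 in *Pds5b*-/- siGLO and 1730.5, 1934 and 1799 in *Pds5a*-/- siPds5b. It fell in all 3 comparisons with WT siGLO (log2 fold changes -0.94, -1.02 and -2.28), whereas *Gldc* rose (0.87, 0.49 and 0.61). Of 21 genes 2 rose and 4 fell in *Pds5a*-/- siGLO, 2 and 5 in *Pds5b*-/- siGLO and 2 and 8 in *Pds5a*-/- siPds5b (medians -0.05, -0.137 and -0.405), beside 9.63, 9.64 and 17.4 percent up and 8.12, 8.57 and 14.6 percent down over all tested genes. Relative to *Pds5a*-/- siGLO, siPds5b lowered 7 (7.59 percent of all tested genes were called), among them *Gnmt* (-0.87) and *Idh2* (-0.57). *Uhrf1* peaks in S phase in dividing cells, and of 36 S phase genes 13, 10 and 22 fell in the 3 comparisons with WT siGLO, with 2 up in *Pds5b*-/- siGLO (medians -0.2, -0.178 and -0.308), and 3 fell after siPds5b relative to *Pds5a*-/- siGLO. *Rrm2* gave -0.67 in *Pds5a*-/- siGLO and -1.34 in *Pds5a*-/- siPds5b. *Uhrf1* itself gave -0.27, -0.34 and -0.33. Whether its change is tied to that of the S phase genes was not tested.

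2-cell-like genes, whose activity in mESCs goes with passing loss of DNA methylation, were read in both knockouts. *Zscan4c* counted 718, 486 and 635 in WT siGLO, 96.5, 70.1 and 52 in *Pds5a*-/- siGLO, 387, 243 and 264 in *Pds5b*-/- siGLO and 601, 546 and 343 in *Pds5a*-/- siPds5b. All 9 listed markers fell in *Pds5a*-/- siGLO, led by *Tcstv3* (-3.53), 1 fell in *Pds5b*-/- siGLO, *Tcstv1* (-1.66), and 1 rose in *Pds5a*-/- siPds5b, *Usp17la* (1.71; medians -2.838, -1.044 and 0.043). Over all tested genes 9.63, 9.64 and 17.4 percent rose and 8.12, 8.57 and 14.6 percent fell in those comparisons. The direct edgeR test of *Pds5a*-/- siGLO against *Pds5b*-/- siGLO called 5 of 9 as lower and left 4 of 9 uncalled (19.2 percent of all tested genes were called), with *Zscan4c* at -2.03 ± 0.34, adjusted p = 0.000291. Against *Pds5a*-/- siGLO, siPds5b raised 9 of 9, where 7.59 percent of all tested genes were called, led by *Usp17le* (3.67), *Usp17lc* (3.59) and *Usp17la* (3.20). Copies within the *Zscan4* and *Usp17l* families may share reads, which was not measured, so these cannot be taken as 9 separate measurements.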
